A study of Mus musculus with 12 samples.

Results

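The microRNAs described here are miR-7, miR-101 and miR-149-5p, each of which has been reported to repress mTOR or a kinase upstream of it. All assays named for miR-7a, miR-7b, miR-101a or miR-101b, from either arm of the hairpin, and the assay for miR-149-5p were taken by name, with no measured value used. This gave 9 of the 504 microRNA assays: miR-7a-5p, miR-7b-5p, miR-7a-2-3p, mmu-miR-7b-3p, mmu-miR-101a-3p, miR-101b-3p, miR-101a-5p, miR-101b-5p and mmu-miR-149-5p, the prefix mmu standing for mouse. All 9 gave a value in all 12 samples and passed the filter on late cycles.

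The study measured microRNAs by RT-PCR in epididymal fat pads of male C57BL/6J wild-type mice that differed in when in life a high-fat diet reached them, with all fat collected at 23 weeks. The high-fat diet held 45% of its energy as fat and the matching control diet 10%, both with 20% as protein. The control group (CD) was assigned the control diet. The group UT was exposed to the high-fat diet in utero through the dam, the group UL from mating to weaning, and the group WL from mating to the end. All parents ate a standard breeding diet before mating. Each group was represented by 3 pooled samples from 12 mice, and neither the mice in each pool nor their litters are given in the sources used here. Tests over these pools measure the spread between pools, in which the mice of a pool are already averaged.

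mTOR is the kinase of the complexes mTORC1 and mTORC2, which join insulin, growth factor and nutrient signals to protein and lipid synthesis. In fat, mTORC1 promotes adipocyte differentiation and lipid storage. A microRNA guides Argonaute to messenger RNAs that pair with its seed, bases 2 to 8 from the 5′ end, and so lowers their translation and stability. miR-7 is abundant in neuroendocrine cells and in pancreatic islets, where it is known to restrain mTOR signalling. miR-101 is best known for repressing the histone methyltransferase Ezh2, and mTOR itself is among its reported targets. miR-149-5p has been reported to target the kinase Akt1, which acts upstream of mTORC1.

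The mature sequences below, from RefSeq on the build GRCm38.p6, show which members share a seed, printed in capitals, since microRNAs with the same seed can reach the same sites. RefSeq held all 9.
miR-7a-5p: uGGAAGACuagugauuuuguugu
miR-7b-5p: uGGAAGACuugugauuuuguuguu
miR-7a-2-3p: cAACAAGUcccagucugccaca
miR-7b-3p: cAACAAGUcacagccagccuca
miR-101a-3p: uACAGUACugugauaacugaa
miR-101b-3p: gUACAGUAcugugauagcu
miR-101a-5p: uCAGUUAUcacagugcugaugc
miR-101b-5p: uCGGUUAUcaugguaccgaugcu
miR-149-5p: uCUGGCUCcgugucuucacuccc

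The 5p arms of miR-7a and miR-7b had the same seed, and over 23 aligned bases they differed only by A10U, counted from the 5′ end of miR-7a-5p. Their 3p arms shared another seed and differed by C10A, U14C, U16A and A20U, counted from the 5′ end of miR-7a-2-3p, with 18 of 22 bases identical. In RefSeq miR-101b-3p starts 1 base earlier than miR-101a-3p, so their bases 2 to 8 were not the same, while 17 of the 18 aligned bases were identical and the other was A16G, counted from the 5′ end of miR-101a-3p. The seed of miR-149-5p was shared with no other mature mouse microRNA in the table. Outside the 9 assays, miR-144-3p had the same bases 2 to 7 as miR-101a-3p and was not analysed here. How far the assays separate sequences that differ by 1 base was not tested.

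miR-7a-5p can come from either of 2 genes, Mir7-1 on chromosome 13 (58392841 to 58392863, minus strand), within Hnrnpk, and Mir7-2 on chromosome 7 (78888295 to 78888317, plus strand), which overlaps no listed gene. The miR-7a-2-3p arm comes from Mir7-2 only. The gene Mir7b, on chromosome 17, also overlaps no listed gene, and its 5p arm lies at 56243017 to 56243040 on the plus strand. Mir101a lies on chromosome 4 in E130102H24Rik, with the 3p arm at 101346957 to 101346977 on the minus strand. Mir101b lies on chromosome 19 in Rcl1, with the 3p arm at 29135338 to 29135356 on the plus strand. Mir149 lies on chromosome 1 in Gpc1, at 92850381 to 92850403 on the plus strand. Whether these positions are exonic or intronic was not analysed here.

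Levels are given as the relative level, the mean cycle threshold (Ct) of the 466 microRNAs measured in all pools minus the Ct of the assay. The unit is a PCR cycle on the log2 scale, and a higher value means an earlier Ct and more template. Between 492 and 506 of the 506 assays, 2 of them for reference RNAs, gave a Ct in a pool. The spread of a pool around its group mean was widest in WL 3 (SD 0.97 over microRNAs) and UT 2 (0.85) and narrowest in UL 3 (0.39). MicroRNAs listed as fat cell markers were early: miR-26a-5p, which promotes fat cell differentiation, came at Ct 16.41 to 18.1, and miR-30c-5p at 17.75 to 19.41. An early Ct did not single out fat cells. The stromal miR-145a-5p came at 16.95 to 18.59 and the endothelial miR-126a-3p at 16.3 to 18.62. Markers of other tissues were present too, among them the epithelial miR-200c-3p at Ct 19.56 to 24.14 and the testis and epididymis microRNA miR-34c-5p at 22.09 to 26.16.

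None of the 9 microRNAs passed the adjusted threshold (limma, Benjamini-Hochberg over 504 microRNAs, adjusted p under 0.05) in any comparison of groups. Against the control diet, 0 of 9 passed in UT, UL or WL, where 1.39%, 0.595% and 0.595% of all microRNAs did. miR-101a-3p came nearest: it was lower in UT than in the other groups, and its adjusted p for UT against CD was 0.154. The adjusted p-values of the members ran from 0.154 to 1 over 7 comparisons. The F test over the 4 groups gave adjusted p-values from 0.318 for miR-101a-3p to 0.99 for miR-101a-5p. Between the groups exposed to the high-fat diet at any time, 0 of 9 members and 0% of all microRNAs passed in each of WL against UL, WL against UT and UL against UT. For the mean of the 3 high-fat groups against CD, 0 of 9 members and 0.595% of all microRNAs passed.

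The members showed no common direction. The 9 include miR-7a-2-3p, miR-7b-3p, miR-101a-5p and miR-101b-5p, whose seeds are not those of the other arms of their hairpins. The median log2 difference of the 9 from CD was -0.01 in UT, 0.00 in UL and 0.02 in WL, beside -0.01, -0.07 and -0.06 over all microRNAs. In UT 4 members stood above 0, and in UL and in WL 5 did. The 3 comparisons share the same control pools. The 95% confidence intervals were wide: the narrowest, for miR-7b-3p, ran from -0.87 to 0.86 in UT against CD, and the widest, for miR-101b-3p, from -2.09 to 1.71. In UT against CD a change of 2-fold, 1 cycle, lay inside the interval for miR-101b-3p and outside it for miR-7b-3p, whose intervals in UL (-1.05 to 0.67) and WL (-0.70 to 1.02) each reached it in 1 direction.

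**Figure D1:**
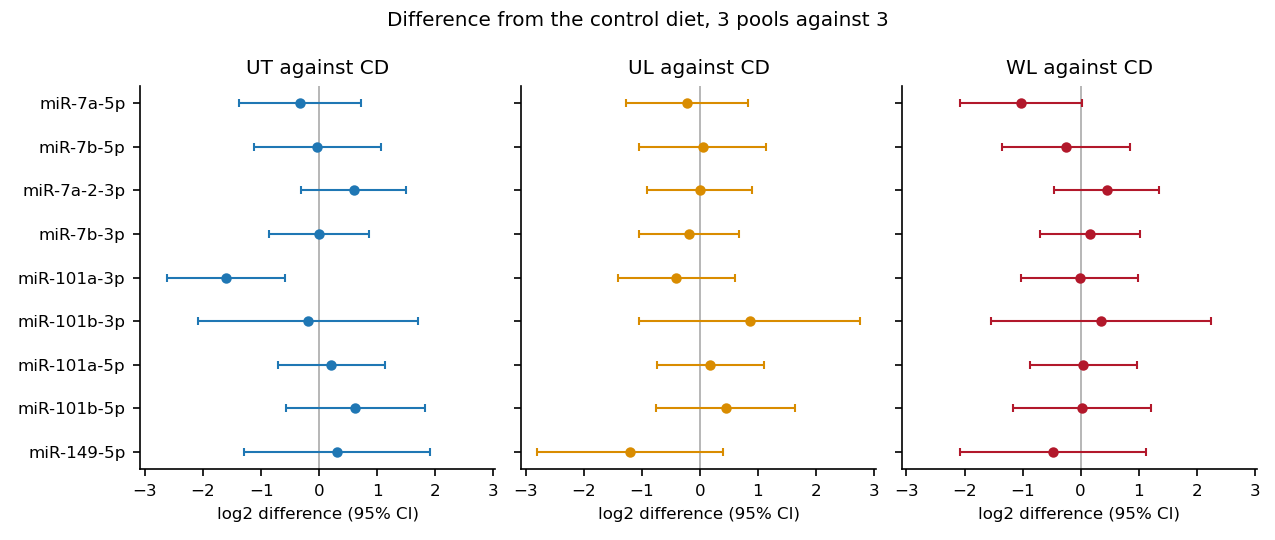
Log2 difference of each member from the control diet with its 95% confidence interval (limma, 3 pools against 3) on the horizontal axis, for UT, UL and WL. Among the 27 intervals only that of miR-101a-3p in UT, from -2.62 to -0.60, leaves out 0.

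miR-101a-3p stood at relative levels of 1.86, 1.46 and 0.72 in the CD pools. In UT it stood at -0.07, 0.12 and -0.83, in UL at 1.76, 0.77 and 0.28, and in WL at 0.90, 1.33 and 1.77. All 3 UT pools therefore lay below all 9 pools of the other groups, while CD, UL and WL overlapped. The group means were 1.35 ± 0.58 for CD, -0.26 ± 0.50 for UT, 0.94 ± 0.75 for UL and 1.33 ± 0.44 for WL (SD, n = 3 each). UT differed from CD by -1.61 (limma, SE 0.46), or 0.329 of the control level, with an unadjusted p of 0.00489 that did not pass adjustment.

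The level in WL was 1.59 above that in UT (limma adjusted p = 0.192) and the level in UL 1.20 above it (adjusted p = 0.539). WL differed from CD by -0.01, with an interval from -1.02 to 1.00, and UL by -0.41, from -1.42 to 0.60. At an unadjusted p under 0.05, miR-101a-3p was the 1 member of 9 in UT against CD, beside 10.1% of all microRNAs. The same member was the 1 of 9 in WL against UT (15.7% of all microRNAs) and in UL against UT (7.94%). No member passed this looser limit in WL against CD, UL against CD, WL against UL or the high-fat mean against CD, where 7.14%, 2.78%, 5.36% and 6.15% of all microRNAs did.

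The size of the UT difference depended on the reference. Scaled to the reference RNA RNU-43, it was -0.86 (limma adjusted p = 0.29). Scaled to the other reference RNA, U6-snRNA, in the 10 pools with a value, it was -1.74 (limma adjusted p = 0.305). RNU-43 itself stood lower in UT, at 6.74 ± 0.32 against 7.48 ± 0.31 in CD (SD, n = 3), and scaling to it raised the median of all microRNAs in UT to 0.73 above CD. Over 29 other settings the difference ran from -1.92 to -0.86 and kept its sign, with limma adjusted p from 0.0996 (the deposited ratios) to 0.64 (without CD 1). Many of these settings could not move the difference, such as the filter, the fill for missing Ct, or leaving out a UL or WL pool. Its sign was open to change only in the rest. Leaving out UT 2 and WL 3, the pools of widest spread in their groups, gave -1.80 (limma adjusted p = 0.101).

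Markers of some other tissues differed in the same UT pools. Over all microRNAs 48.8% were higher in UT than in CD, and the counts below carry no test. They hold for levels scaled to the mean Ct, and the markers were not rescaled to RNU-43. That scaling put the median of all microRNAs 0.73 above CD, a shift larger than the stromal and fat cell medians below. All 10 of the epithelial markers were lower in UT than in CD, with a median of -1.68 and none past the threshold, and the summed level of the 9 complete ones was 3.53 to 5.35 in UT and 4.65 to 7.25 in CD. All 7 measured stromal markers were lower, with a median of -0.61. The summed level of the 6 complete ones was 8.022 to 8.419 in UT and 8.42 to 8.979 in CD. The highest UT pool and the lowest CD pool were thus nearly level. All 8 measured testis and epididymis markers were higher, with a median of 0.77. Their summed level was 2.41 to 4.17 in UT and 2.62 to 2.75 in CD. Of 6 leukocyte markers 4 were lower and 2 higher, with a median of -0.74 and summed levels of 4.67 to 5.84 in UT and 5.49 to 6.43 in CD. The part of these tissues in the level of miR-101a-3p was not tested, and in a bulk sample fewer cells of a type cannot be told apart from less RNA per cell. Markers of fat cells differed less, with a median of -0.31 and 6 of 7 lower. The summed level of fat cell markers was 8.82 to 8.84 in UT and 8.80 to 9.03 in CD. Other lists showed little shift. Of 6 muscle markers 4 were lower and 2 higher, with a median of -0.15. Of 2 red blood cell markers and of 2 endothelial ones, 1 was higher and 1 lower in each, with medians of 0.18 and 0.09.

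**Figure D2:**
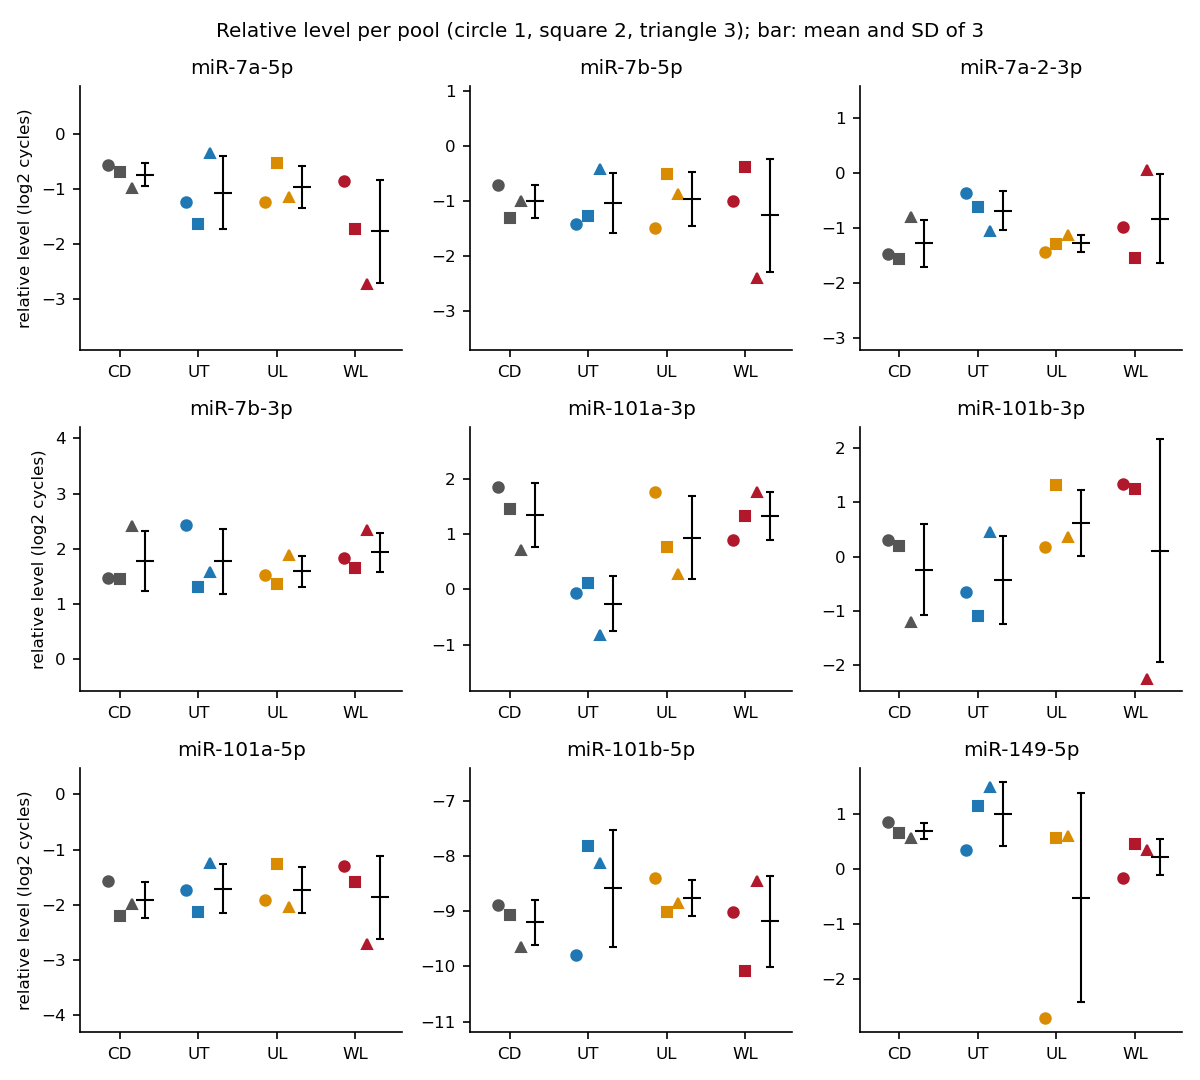
Relative level (cycles, log2 scale) of the 9 members in each of the 12 pools by group; circles, squares and triangles are pools 1, 2 and 3, and bars give the mean and SD of 3 pools. The UT pools of miR-101a-3p, from -0.83 to 0.12, lie below all others, while pool WL 3 of miR-101b-3p (-2.26) and pool UL 1 of miR-149-5p (-2.72) stand far from their groups.

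miR-101b-3p, the near-identical paralog, stood at 0.30, 0.19 and -1.20 in CD and at -0.65, -1.10 and 0.46 in UT. In UL it stood at 0.18, 1.32 and 0.36, and in WL at 1.35, 1.25 and -2.26. The pools of UT and CD overlapped, and UT differed from CD by -0.19 (limma, SE 0.87), an interval wide enough to hold the difference of miR-101a-3p. Whether the paralogs differed in their response was not tested.

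The high value of miR-101b-3p in WL rested on which pools were counted. With all 3 pools WL exceeded CD by 0.35 (limma adjusted p = 0.978), and without WL 3 by 1.54 (adjusted p = 0.383). Its pooled SD within groups, 1.22, exceeded that of 89.9% of the microRNAs measured in all pools. The 3p arms of the miR-101 hairpins came before the 5p arms. miR-101a-3p came 2.65 ± 1.08 cycles earlier than miR-101a-5p (SD, n = 12) and earlier in all 12 pools. miR-101b-3p came 8.95 ± 1.44 cycles earlier than miR-101b-5p, also in all 12 pools.

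Such differences between assays hold only as far as the assays amplify alike. The 3p arm is the guide strand usually loaded for miR-101. The lead of miR-101a-3p over miR-101a-5p was 3.26 ± 0.50 cycles for CD, 1.45 ± 0.94 for UT, 2.68 ± 0.87 for UL and 3.20 ± 1.17 for WL (SD, n = 3 each). The 5p level was -1.71 in UT and -1.92 in CD, so the smaller lead in UT came with the lower 3p level. miR-101a-5p ranged over all pools from -2.72 in WL 3 to -1.25 in UT 3. The group differences of miR-101a-5p from CD were 0.21 in UT, 0.18 in UL and 0.05 in WL (limma, SE 0.42 each).

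miR-101b-5p was among the latest assays of the table, at rank 502 of 504 by mean level. Its Ct ran from 32.39 in UT 2 to 34.99 in WL 2, and its group means were -9.20 for CD, -8.58 for UT, -8.75 for UL and -9.18 for WL. The pools of these groups overlapped.

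miR-149-5p, the repressor of Akt1, stood at 0.84, 0.64 and 0.56 in CD and at 0.35, 1.13 and 1.49 in UT. In UL it stood at -2.72, 0.55 and 0.59, and in WL at -0.16, 0.44 and 0.34. The value in UL 1, from a Ct of 27.68 where the other 11 pools lay between 23.44 and 25.06, was the one far from the rest. All 3 WL pools lay below all 3 CD pools, by -0.48 between the means (limma adjusted p = 0.978). This was the 1 member of 9 whose groups did not overlap in WL against CD, beside 11% of all microRNAs complete in both groups.

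UL differed from CD by -1.21 in miR-149-5p (limma, SE 0.73, adjusted p = 0.995), and without UL 1 by -0.11. UL differed from UT by -1.52 (limma adjusted p = 0.643), and by -0.42 at the smallest when a pool was left out. The mean difference in UL thus came mostly from 1 pool. UT stood 0.31 above CD, with an interval from -1.29 to 1.91.

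miR-7b-3p was the earliest of the 9, at rank 159 of 504. Its levels were 1.47, 1.45 and 2.41 in CD, 2.44, 1.30 and 1.57 in UT, 1.52, 1.35 and 1.89 in UL, and 1.84, 1.64 and 2.33 in WL. The groups overlapped throughout, and the differences from CD were -0.01 in UT, -0.19 in UL and 0.16 in WL (limma, SE 0.39 each). miR-7b-3p came before the 5p arm of the same hairpin in all 12 pools, by 2.84 ± 0.84 cycles (SD, n = 12). The 5p arm is the one known as miR-7 and the one that carries the seed tied to mTOR signalling.

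miR-7b-3p also came 2.79 ± 0.38 cycles before miR-7a-2-3p (SD, n = 12), again in all 12 pools. The arms of miR-7a differed little, with miR-7a-2-3p ahead of miR-7a-5p in 6 of 12 pools and by 0.11 ± 1.05 cycles on average. Since miR-7a-5p can come from Mir7-1 as well as Mir7-2, this is not the difference within a single hairpin. miR-7a-2-3p stood at -1.48, -1.58 and -0.80 in CD, at -0.37, -0.63 and -1.07 in UT, at -1.44, -1.29 and -1.13 in UL, and at -0.99, -1.56 and 0.05 in WL. Its UL pools all lay below its UT pools, a difference of -0.60 (limma adjusted p = 0.811). It and miR-101a-3p were the 2 of 9 members whose groups did not overlap in UL against UT, beside 13.3% of all microRNAs complete in both.

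miR-101a-3p was the 1 of 9 whose groups did not overlap in UT against CD (14% of all microRNAs) and in WL against UT (19.3%). No member's groups were apart in UL against CD (7.88%) or WL against UL (9.88%). With 9 members, 0 to 2 such microRNAs per comparison is a share near that of the whole table.

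miR-7a-5p, the most widely studied form of miR-7, stood at -0.56, -0.69 and -0.97 in CD. In UT it stood at -1.23, -1.63 and -0.34, in UL at -1.23, -0.53 and -1.15, and in WL at -0.85, -1.72 and -2.72. The WL pools ran lower, 2 of 3 below all CD pools, but overlapped CD. WL differed from CD by -1.02 (limma, SE 0.48, interval -2.08 to 0.03, adjusted p = 0.663), and without WL 3 by -0.55. Of 10 nerve and neuroendocrine markers, the cells in which miR-7 is abundant, 8 were lower in WL than in CD (median -0.31), 8 in UL (median -0.19), where miR-7a-5p differed by -0.23, and 6 in UT (median -0.21), none past the threshold. By comparison, 43.5% of all microRNAs were higher than CD in WL, 43.7% in UL and 48.8% in UT. The summed level of the nerve and neuroendocrine markers was 4.12 to 4.80 in WL and 3.89 to 5.13 in CD. Their part in the level of miR-7a-5p was not tested.

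miR-7b-5p stood at -0.71, -1.32 and -1.00 in CD, at -1.42, -1.28 and -0.43 in UT, at -1.49, -0.52 and -0.89 in UL, and at -1.01, -0.39 and -2.40 in WL. Its WL difference was -0.26 with all pools and 0.31 without WL 3, so 1 pool set the sign. The 5p paralogs were at nearly the same level, with a mean difference between miR-7a-5p and miR-7b-5p of -0.06 ± 0.48 cycles (SD, n = 12).

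The paralogs were set against each other over the 12 pools as a description, since the pools share the normalization and the design. miR-7a-5p and miR-7b-5p had a Pearson r of 0.70 (Spearman rho 0.48), which fell to 0.31 without WL 3 and to 0.12 without WL 3 and UT 3. miR-7a-2-3p and miR-7b-3p had r = 0.68 (rho 0.51), with 0.59 without WL 3. For miR-101a-3p and miR-101b-3p r was -0.03 (rho -0.07), and 0.26 without WL 3. In none of the 4 pairs of opposite arms did the arms vary together, with r from -0.62 to -0.25, and from -0.24 to -0.14 without WL 3. The lowest, -0.62, was that of miR-7a-2-3p and miR-7a-5p. The latter can also come from Mir7-1, so this pair does not describe a single hairpin.

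**Figure D3:**
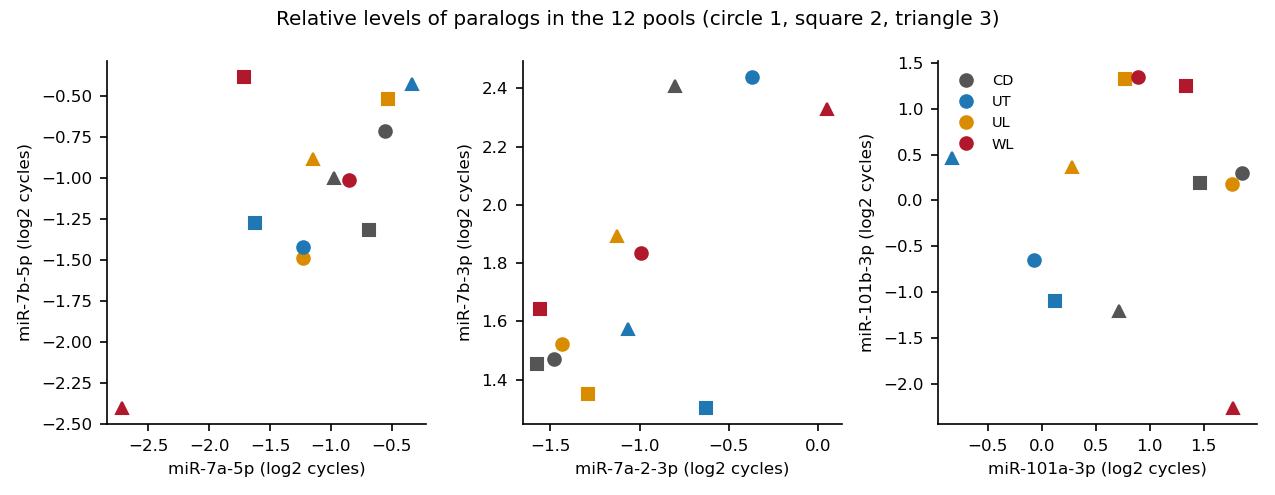
Relative levels (cycles, log2 scale) of paralogous arms against each other, each point a pool coloured by group, with circles, squares and triangles for pools 1, 2 and 3. Pool WL 3 lies alone at the lower left for miR-7a-5p and miR-7b-5p (-2.72 and -2.40) and at the lower right for miR-101a-3p and miR-101b-3p (1.77 and -2.26).

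Pool WL 3 held the largest deviation from the 12-pool median for 5 members: miR-7a-5p, miR-7b-5p, miR-7a-2-3p, miR-101b-3p and miR-101a-5p. The assays next to them in accession number mostly deviated in the same direction there. These neighbours can include related microRNAs: miR-7a-5p and miR-7b-5p are among each other's 10 neighbours and share 8 of the rest, and the same holds for miR-7a-2-3p and miR-7b-3p. Of the 10 neighbours of miR-7a-5p, 10 were below their own median in WL 3, with a median deviation of -1.22, where miR-7a-5p itself was at -1.66. Without miR-7b-5p, the other 9 were all below, with a median of -1.18. Around miR-101a-5p also 10 of 10 were below, and around miR-101b-3p 9 of 10, with medians of -0.76 and -1.06. miR-101a-5p itself was at -0.89. miR-101b-3p itself was at -2.51, below the lowest of its neighbours (-2.07).

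The neighbours that miR-7a-2-3p and miR-7b-3p have largely in common, 1 neighbourhood rather than 2, were high in WL 3 as these members were. With the members left out, 0 of 9 were below their median around either, and the medians were 0.57 and 0.68. Accession numbers tend to follow the order of discovery, and whether they follow the layout of the PCR plates is not stated in the sources used here. The deviation of miR-149-5p in UL 1 was not shared: it was -3.27, while 1 of its 10 neighbours was below its median and their median was 0.21. For miR-101a-3p in UT the neighbours' medians were 0.00, -0.21 and -0.56, beside deviations of -0.91, -0.71 and -1.66 of the microRNA itself. With the neighbours' median subtracted, UT differed from CD by -1.28 (limma, SE 0.36, adjusted p = 0.129).

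**Figure D4:**
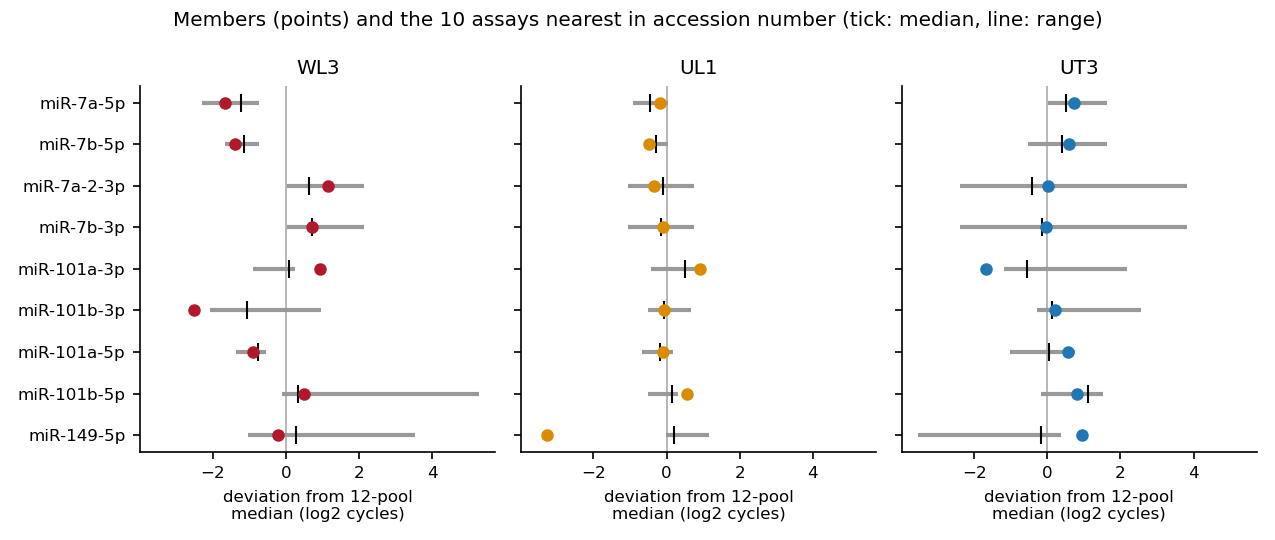
Deviation of each member from its own median over 12 pools (coloured point, log2 cycles) and the median and range of its 10 neighbours in accession number (black tick, grey line), in pools WL 3, UL 1 and UT 3. In WL 3 the points of miR-7a-5p and miR-7b-5p lie within their neighbours' range, which for each includes the other and which holds them also without it. Below their ranges lie miR-101b-3p in WL 3 (-2.51), miR-149-5p in UL 1 (-3.27) and miR-101a-3p in UT 3 (-1.66). Above theirs lie miR-101a-3p in WL 3 (0.94), miR-101b-5p in UL 1 (0.55) and miR-149-5p in UT 3 (0.94).

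For each member the microRNAs most like it over the 12 pools were found among 465 others measured in all pools. miR-101a-3p was most like miR-143-3p (r = 0.88), miR-148b-3p (0.86) and miR-98-5p (0.84), and least like miR-683 (-0.82) and miR-431 (-0.80). Of these, miR-143-3p is on the list of stromal markers and also on the list of other mTOR repressors described below. The same holds for miR-199a-3p, named below for miR-7a-5p. miR-101b-3p was most like miR-17-5p (0.97), miR-106a-5p (0.91) and miR-301a-3p (0.91), and least like miR-410 (-0.87) and miR-330-3p (-0.82). Likewise, miR-101a-5p was most like miR-301a-3p (0.90), miR-106a-5p (0.85) and miR-125b-2-3p (0.82). Its least like were miR-326-3p (-0.79) and miR-216a-5p (-0.77). For miR-101b-5p they were miR-100-3p (0.80), miR-107-5p (0.80) and miR-32-3p (0.73), against miR-93-5p (-0.73) and miR-374b-5p (-0.68). These are the highest and lowest of many values, so they describe the table and carry no test.

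Among the miR-7 arms, miR-7a-5p was most like miR-361-5p (0.92), miR-199a-3p (0.90) and miR-191-5p (0.89), and miR-7b-5p most like miR-222-3p (0.98), miR-211-5p (0.93) and miR-362-5p (0.93). The least like were miR-380-5p (-0.84) and miR-467a-5p (-0.84) for miR-7a-5p, and miR-410 (-0.82) and miR-1193-3p (-0.81) for miR-7b-5p. For miR-7b-3p the most like were miR-181b-2-3p (0.85), miR-375-5p (0.78) and miR-487b-5p (0.74), and the least like miR-433-5p (-0.78) and miR-688 (-0.77). miR-7a-2-3p was most like miR-678 (0.80), miR-592-3p (0.79) and miR-330-3p (0.78), against miR-455-3p (-0.90) and miR-10a-5p (-0.83). miR-149-5p had the weakest likenesses, to miR-181d-5p (0.65), miR-411 (0.63) and miR-122-3p (0.62), with miR-125b-5p (-0.78) and miR-30b-5p (-0.77) least like. Of the 27 highest, 10 lay within 10 places of the member in accession order, and none was another member. Among the near ones, miR-222-3p, miR-211-5p and miR-362-5p lay 6, 8 and 3 places from miR-7b-5p, and miR-17-5p 3 places from miR-101b-3p. Every r here includes pool WL 3, and none was computed without it.

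Other microRNAs reported to repress mTOR, its complexes or the insulin and PI3K signals above it were taken as a list, of which 28 of 30 entries were measured. None of the 28 passed the threshold against CD in UT, UL or WL. In WL 17 were higher and 11 lower than CD (median 0.05), in UL 9 and 19 (median -0.18), and in UT 7 and 21 (median -0.28). Over all microRNAs 43.5% were higher in WL, 43.7% in UL and 48.8% in UT. The list thus leaned the other way in WL, and further to lower levels than the whole in UL and UT. These counts were not tested, and nothing particular to the list is read from them. The highest of them by mean level, let-7b-5p, let-7c-5p and let-7a-5p, which target the insulin and IGF1 receptors, came at 8.48, 8.34 and 7.64. Their differences from CD were -0.32, -0.12 and -0.25 in UT (limma adjusted p of 0.81 or more). miR-126a-3p, an endothelial microRNA that targets a PI3K regulatory subunit, followed at 7.47, with -1.19 in UT (limma adjusted p = 0.395), while the other arm of its hairpin, miR-126a-5p, stood 1.36 above CD there (adjusted p = 0.0766). Levels of the 9 members were lower than these, the highest being 1.77 for miR-7b-3p.

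The authors' deposited table of fold changes gives other values for several members. Its ratios grow with Ct, so a ratio over 1 in it stands for a later Ct and a lower level than in CD. In the authors' deposited table miR-101a-3p has 3.23 for UT, 2.56 for UL and 2.18 for WL. The ratios recomputed from the groups' own pools were 3.23, 1.41 and 1.04. For miR-149-5p the authors' deposited table has 4.16 for UL and 4.24 for WL, where the own pools gave 4.42 and 1.50.

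Over all 506 assays, the UT column of the authors' deposited table matched UT 1, UT 2 and UT 3. Its UL column matched UT 2, UT 3 and UL 1, and its WL column matched UT 3, UL 1 and UL 2, out of 220 sets of 3 pools tried. The WL column therefore holds the late UL 1 value of miR-149-5p and no WL pool. Against their own pools, 6 of the 9 members lay on the other side of 1 in the WL column, 3 in the UL column and 0 in the UT column. These own-pool ratios are means of linear ratios, in which a late pool weighs most. Set against the log2 differences from Ct instead, 3 members lay on the other side in the WL column, 3 in the UL column and 0 in the UT column.

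**Figure D5:**
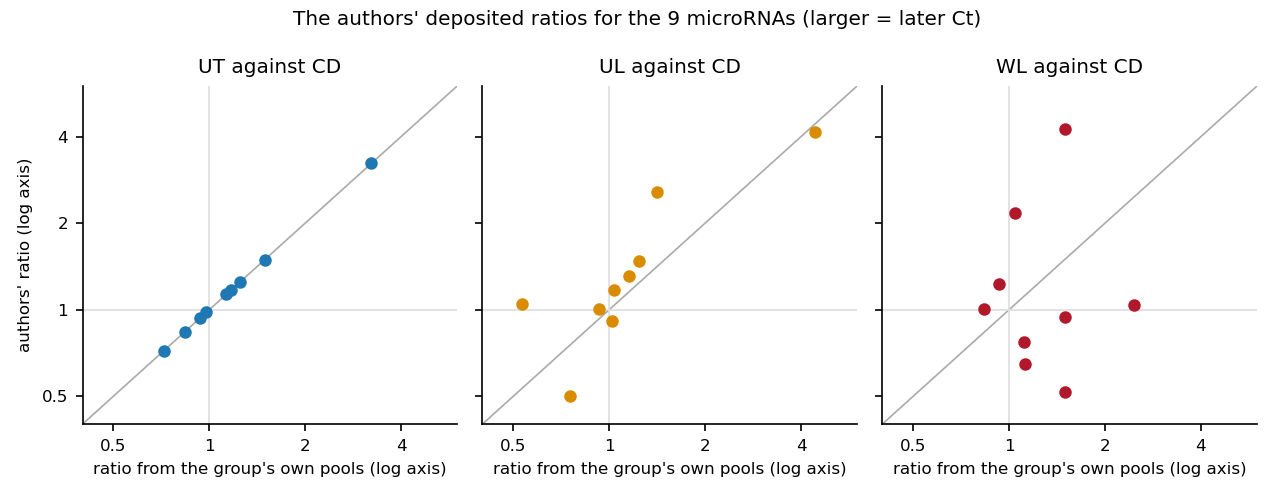
Ratios to the control group in the authors' deposited table (vertical, log axis) against the ratios recomputed from the pools that each column names (horizontal, log axis) for the 9 members; a ratio over 1 stands for a later Ct. All UT points lie on the diagonal, and in the WL panel miR-149-5p is at 4.24 in the authors' table and 1.50 from the WL pools.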

How the data were processed

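RNA of pooled epididymal fat was measured by RT-PCR; the PCR platform, threshold rule and reference are not stated in the sources used here. Per the file headers, the deposited tables hold raw threshold cycles (Ct), normalized ratios, and the authors' fold changes, a ratio of group means. The header gives the ratio as 2 to the power of minus delta Ct, but Ct minus its log2 value was the same for all assays of a pool (24.74 to 25.46, range at most 0.01), so these ratios grow with Ct. Ct values were therefore used. Of 507 rows 1 repeated another and was dropped, which left 504 microRNAs and 2 reference RNAs.

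Relative levels were fitted with limma 3.58.1 (R 4.3.3; lmFit, eBayes, 4 groups, two-sided). The filter asked for Ct under 35 in 3 pools or more and removed 0. Correlations were computed with scipy 1.17.1. The script was tested on simulated data. The members and lists were chosen with earlier results of these data known. The microRNAs named are the members, their opposite arms and seed sharers, the 3 most and 2 least correlated with each, list members past the threshold, and the 4 with the highest mean level in the list on mTOR repression (1 further list is not reported here); markers of other tissues, the reference RNAs and miR-126a-5p (chosen after its values were seen) are named only as checks. Alternatives covered reference, normalization, late and missing Ct, variance model, neighbouring assays, the deposited ratios and each pool left out.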

Additional observations from a re-analysis of the deposited data

How the results depend on the processing

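No member passed the adjusted threshold in any comparison under any of the 29 other settings. The lowest adjusted p of any member was 0.0996 (limma). With the replicate number as a block, miR-101a-3p in UT against CD was -1.61 (limma adjusted p = 0.146). Same-numbered pools did not deviate together (r from -0.27 to 0.26 in 18 pairs, 7 over 0.1), so the numbers were not taken to pair the pools. The count of all microRNAs past the threshold ran from 0 to 15 in UT (7 in the fit reported), and from 0 to 6 in UL and in WL (3 in each). Of 32 differences, 15 kept their sign under every setting, among them those of miR-101a-3p in UT and of miR-149-5p in UT, UL and WL. The 32 are the differences of each member from CD in UT, UL and WL, and a few picked ones. Those are miR-101a-3p in WL against UT, UL against UT and the high-fat mean against CD, and miR-149-5p and miR-7a-2-3p in UL against UT. All the picked ones kept their sign, which raises the share. Many settings could not move a given difference. Without a pool in turn, the UT difference of miR-101a-3p ran from -1.92 to -1.32. The other 17 changed sign at least once, and the cause was not tested. All values that follow are log2 differences from CD that changed sign. Scaling to RNU-43 gave 0.55 for miR-101b-3p, 0.42 for miR-7a-5p, 0.74 for miR-7b-3p and 0.71 for miR-7b-5p in UT, 0.14 for miR-7a-5p and 0.18 for miR-7b-3p in UL, and 0.0026 for miR-101a-3p in WL. Scaling to U6-snRNA, in the 10 pools with a value, gave 0.12 for miR-7b-5p in UT, and 0.020 for miR-101a-3p, -0.087 for miR-101b-5p and 0.56 for miR-7b-5p in WL. Scaling to the earlier part of the microRNAs gave 0.18 for miR-7b-3p and 0.15 for miR-7b-5p in UT and 0.036 for miR-101a-3p in WL. Scaling to the median gave -0.011 for miR-7a-2-3p in UL and -0.017 for miR-101b-5p in WL. Quantile normalization gave 0.19 for miR-7b-3p in UT and -0.028 for miR-7a-2-3p in UL. The deposited ratios gave -0.060 for miR-7a-2-3p and -0.014 for miR-7b-5p in UL, and -0.043 for miR-101a-5p and -0.064 for miR-101b-5p in WL. Pool weights gave 0.21 for miR-7b-3p in UT, and -0.20 for miR-101b-5p and 0.092 for miR-7b-5p in WL. With neighbours in table order subtracted, the values were 0.042 for miR-7b-3p in UT, 0.044 for miR-7a-5p and 0.057 for miR-7b-3p in UL, and -0.17 for miR-101a-5p and -0.15 for miR-101b-5p in WL. Neighbours in accession order, a choice made after seeing the data, gave -0.24 for miR-101b-5p in UT, and -0.38 for miR-101b-5p and 0.0037 for miR-7b-5p in WL. Leaving out UT 2 and WL 3, also chosen after seeing the data, gave 0.14 for miR-101b-3p, 0.23 for miR-7b-3p and 0.086 for miR-7b-5p in UT, and -0.34 for miR-101b-5p, -0.038 for miR-7b-3p and 0.31 for miR-7b-5p in WL. Without a pool in turn, ranges that crossed 0 were, in UT, -0.34 to 0.16 for miR-7b-5p, -0.34 to 0.31 for miR-7b-3p, -0.68 to 0.14 for miR-101b-3p and -0.022 to 0.42 for miR-101a-5p. In UL they were -0.18 to 0.31 for miR-7b-5p, -0.14 to 0.24 for miR-7a-2-3p, -0.35 to 0.13 for miR-7b-3p and -0.055 to 0.36 for miR-101a-5p. In WL they were -0.70 to 0.31 for miR-7b-5p, -0.038 to 0.47 for miR-7b-3p, -0.33 to 0.24 for miR-101a-3p, -0.27 to 1.54 for miR-101b-3p, -0.24 to 0.47 for miR-101a-5p and -0.34 to 0.47 for miR-101b-5p. The precision is limited by 3 pools a group and, for miR-101b-5p, by a late Ct of 32.39 to 34.99.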
